A study of Homo sapiens with 21 samples.

Results

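Tri-C captures the chromatin contacts of a chosen fragment, the viewpoint, and keeps reads in which that fragment was ligated to at least a pair of other fragments, the reporters, so that contacts of 3 sites on one molecule are seen. The data described here are the libraries of viewpoints placed on CTCF-binding sites (CBSs) at the boundaries of gene loci, at 0 h and 24 h of the conversion of B cells to induced macrophages (iMacs). They comprised 6 of the 21 samples of the series and 102 of its 371 count files, one file for each of 51 loci in each of 2 pooled libraries. The members were chosen by viewpoint type and time alone, with the IFNGR2 and TASL loci left out. BLaER1, the line used, derives from a human B cell leukaemia and carries a C/EBPα fusion that oestradiol activates. The 0 h cells had received no conversion factors, and the 24 h cells had been kept for 24 h with 17β-estradiol, IL-3 and CSF-1. Both groups are one cell line with the same transgene, so the conversion is driven by one exogenous factor in leukaemic cells. Of the loci, 36 belong to genes active in iMacs and 15 to genes active in B cells.

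CTCF is a zinc-finger protein that binds an asymmetric DNA motif. Cohesin extrudes chromatin loops and is halted at CTCF when it meets the motif from one side, so that CTCF sites whose motifs point at each other tend to form the anchors of loops and the borders of domains. A boundary site therefore usually contacts the domain on the side to which its motif points. The comparison of 24 h with 0 h asks how the contacts of such sites with the promoter, the enhancer and the rest of the locus stand after the first day of conversion.

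Each file pools 3 replicates, so a condition is a single library here. All tests compare 2 libraries and measure counting error only, with no replicate check on any difference. Counts within 1 Mb of the viewpoint summed to 2114225 at 0 h and 2459740 at 24 h, with 13079 to 73792 counts a locus at 0 h and 15107 to 87640 at 24 h. Over the whole chromosome the 24 h library was the deeper one at 50 of 51 loci. Within 1 Mb it was the shallower one at some loci, such as RAG2, with 51793 counts at 0 h and 50659 at 24 h. Every pair of reporters on a read was counted, and counts are not independent molecules, so intervals are too narrow by an amount that the files do not show.

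The boundary fragments were 118 to 292 bp long. Of the 51, 25 lay in an intron of a protein-coding gene, 2 in an exon and 24 outside such genes. The enhancer viewpoint of the same locus lay 21.3 to 819 kb away, with a median of 140 kb. The target promoter lay 2.0 to 1067 kb away, with a median of 150 kb and the shortest distance at CD14. Promoter and enhancer lay on the same side of the boundary site at 50 of 51 loci. A search for the CTCF core motif on both strands of hg38, with the 15 best matches kept per Mb, found a match within 1 kb of 23 of the 51 sites (45.1%), against 2.91% of all 2 kb windows in the same regions. At 21 of the 23 the motif pointed to the side of the enhancer. The matches below are 5 of the 9 that lie inside the captured fragment, the 2 that point away from the enhancer, and that of ITGAX, where the contacts at 0 h departed from the motif's direction. They are read 5′ to 3′ on the strand of the motif, from the hg38 reference, and capitals mark the 19 matched bases.
LMO2, chr11:33858024-33858042, plus strand: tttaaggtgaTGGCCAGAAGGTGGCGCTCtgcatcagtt
MPEG1, chr11:59430107-59430125, minus strand: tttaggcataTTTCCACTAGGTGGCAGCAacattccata
GAS7, chr17:9965792-9965810, plus strand: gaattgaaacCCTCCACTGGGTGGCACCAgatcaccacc
PAX5, chr9:37309211-37309229, minus strand: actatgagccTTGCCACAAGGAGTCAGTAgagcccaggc
DNTT, chr10:96340478-96340496, minus strand: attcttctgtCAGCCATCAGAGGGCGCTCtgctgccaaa
PELI1, chr2:64331040-64331058, plus strand: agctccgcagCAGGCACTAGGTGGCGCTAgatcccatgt
IGLL1, chr22:23862285-23862303, plus strand: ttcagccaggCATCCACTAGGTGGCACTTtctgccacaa
ITGAX, chr16:31460863-31460881, minus strand: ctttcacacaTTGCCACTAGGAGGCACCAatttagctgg
The first 5 matches lie inside the captured fragment and point to the enhancer. The motifs at PELI1 and IGLL1 point away from it. At ITGAX the motif pointed to the enhancer while fewer than 50% of the contacts lay there at 0 h.

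At most sites with a motif match, and at most sites without one, contacts lay mainly on the enhancer's side. The measure is the share of distant reporters, those of pairs whose reporters lie over 10 kb from the viewpoint and over 10 kb apart. At 0 h, 22 of 23 sites with a match had more than 50% of distant reporters on the motif's side, with a median of 67.2% and a range of 47.3% to 75.8%. The exception was ITGAX, an integrin of myeloid cells, at 47.3%, and at 24 h all 23 were above 50%. Of the 28 sites with no match, 26 had more than 50% on the enhancer's side at 0 h, with a median of 66.9%. The motif's side and the enhancer's side are the same at 21 of the 23 sites with a match. At PELI1, a ubiquitin ligase of Toll-like receptor signalling, 37.2% of distant reporters lay on the enhancer's side at 0 h and 41.4% at 24 h. At IGLL1, a part of the surrogate light chain of precursor B cells, the values were 34.3% and 34.7%. These 2 sites, the ones with motifs that point away, ranked 3 and 2 from the bottom of all 51 loci at 0 h. CD38, an ectoenzyme of B cells, ranked lowest with 33.2% and had no match within 1 kb. It is also the locus whose promoter and enhancer lie on opposite sides of the site.

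Over the first 24 h the contacts of boundary sites shifted to the enhancer's side at most iMac loci. Of 36 iMac loci, the enhancer-side share rose at 23 and fell at 3 by Fisher's exact test, with Benjamini-Hochberg adjustment over the 51 loci. Their median share was 67.3% at 0 h and 69.2% at 24 h. At the 15 B cell loci it rose at 7 and fell at 6, with medians of 64.3% and 66.7%. Over all loci 58.8% rose and 17.6% fell. The difference between the classes was not tested. All these tests used 2 reporters a pair, and with counts divided by 6, for the pair and the pooled replicates, 19 iMac loci rose and 2 fell, and 5 B cell loci rose and 4 fell.

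The largest rises among the named iMac loci were at CD14, SRGN and NFKBIZ. At CD14, the lipopolysaccharide co-receptor, the boundary site lies only 2.0 kb from the promoter. Of its distant reporters 69.8% (95% interval 69.1% to 70.4%) lay on the enhancer's side at 0 h and 79.0% (78.6% to 79.5%) at 24 h. At SRGN, which encodes the granule proteoglycan serglycin, the share went from 68.5% (67.9% to 69.0%) to 76.8% (76.4% to 77.3%). At NFKBIZ, an inducible nuclear IκB protein, it went from 60.7% (60.1% to 61.4%) to 69.7% (69.2% to 70.3%). These 3 loci were picked as the largest called rises, so the gap between their intervals adds no support. The intervals count both reporters of a pair and so are too narrow. At 96 h, against the same 0 h library, the shares were 82.4%, 81.9% and 79.2%. KDM7A, a histone demethylase, TRIB1, a pseudokinase that acts on C/EBPα, and CCR1, a chemokine receptor, rose as well. Their shares went from 69.7% to 74.6%, from 71.2% to 75.0% and from 73.4% to 76.8%, and were 79.3%, 79.2% and 73.7% at 96 h.

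Among myeloid transcription regulators the share rose at 10 of 13 loci and fell at none, and among myeloid surface and secreted proteins it rose at 8 of 13 and fell at 1. Of the 10 signalling and other myeloid loci, 5 rose and 2 fell. LMO2, a haematopoietic LIM-domain regulator, and IRF8, a lineage factor of B and myeloid cells, did not pass the test. Their shares were 70.1% and 70.4% at LMO2 and 65.5% and 66.1% at IRF8. Of the named iMac loci PTPRC, the pan-leukocyte phosphatase CD45, fell from 60.2% to 58.8%, a call that was lost with counts divided by 3.

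At B cell loci the share rose at 4 of 4 B lineage transcription factors. It rose at 2 and fell at 3 of the 7 B cell receptor, recombination and surface loci, and rose at 1 and fell at 3 of the 4 other B cell loci. The difference between these lists was not tested. PAX5, which maintains B cell identity, went from 66.4% (65.7% to 67.0%) to 73.0% (72.6% to 73.4%), and MYB, a progenitor factor, from 69.7% (69.1% to 70.3%) to 75.8% (75.2% to 76.3%). EBF1, which acts with PAX5 in early B cells, went from 61.4% to 63.4%, a call lost with counts divided by 6. Outside the transcription factors CD38 rose from 33.2% to 38.1%, and IRAG2, an endoplasmic reticulum membrane protein of lymphocytes, from 64.3% to 68.5%. RAG2, a subunit of the V(D)J recombinase, went from 71.8% (71.3% to 72.3%) to 68.4% (67.9% to 68.9%), and IL7R, the lymphoid cytokine receptor, from 77.8% to 75.6%. DNTT, the terminal transferase, went from 61.7% to 58.9%, and this call was lost with counts divided by 6. BCL2, the survival gene, went from 69.5% to 67.6%, and RORB from 57.7% to 53.6%. At 96 h the shares at PAX5, MYB and EBF1 were 73.0%, 80.1% and 66.2%, and at CD38 and IRAG2 37.9% and 71.4%. At RAG2, IL7R, DNTT, BCL2 and RORB they were 70.0%, 79.0%, 65.4%, 69.4% and 49.5%. Among these 5 loci the 96 h share lay above the 0 h share at IL7R and DNTT and below it at RAG2, BCL2 and RORB.

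**Figure D1:**
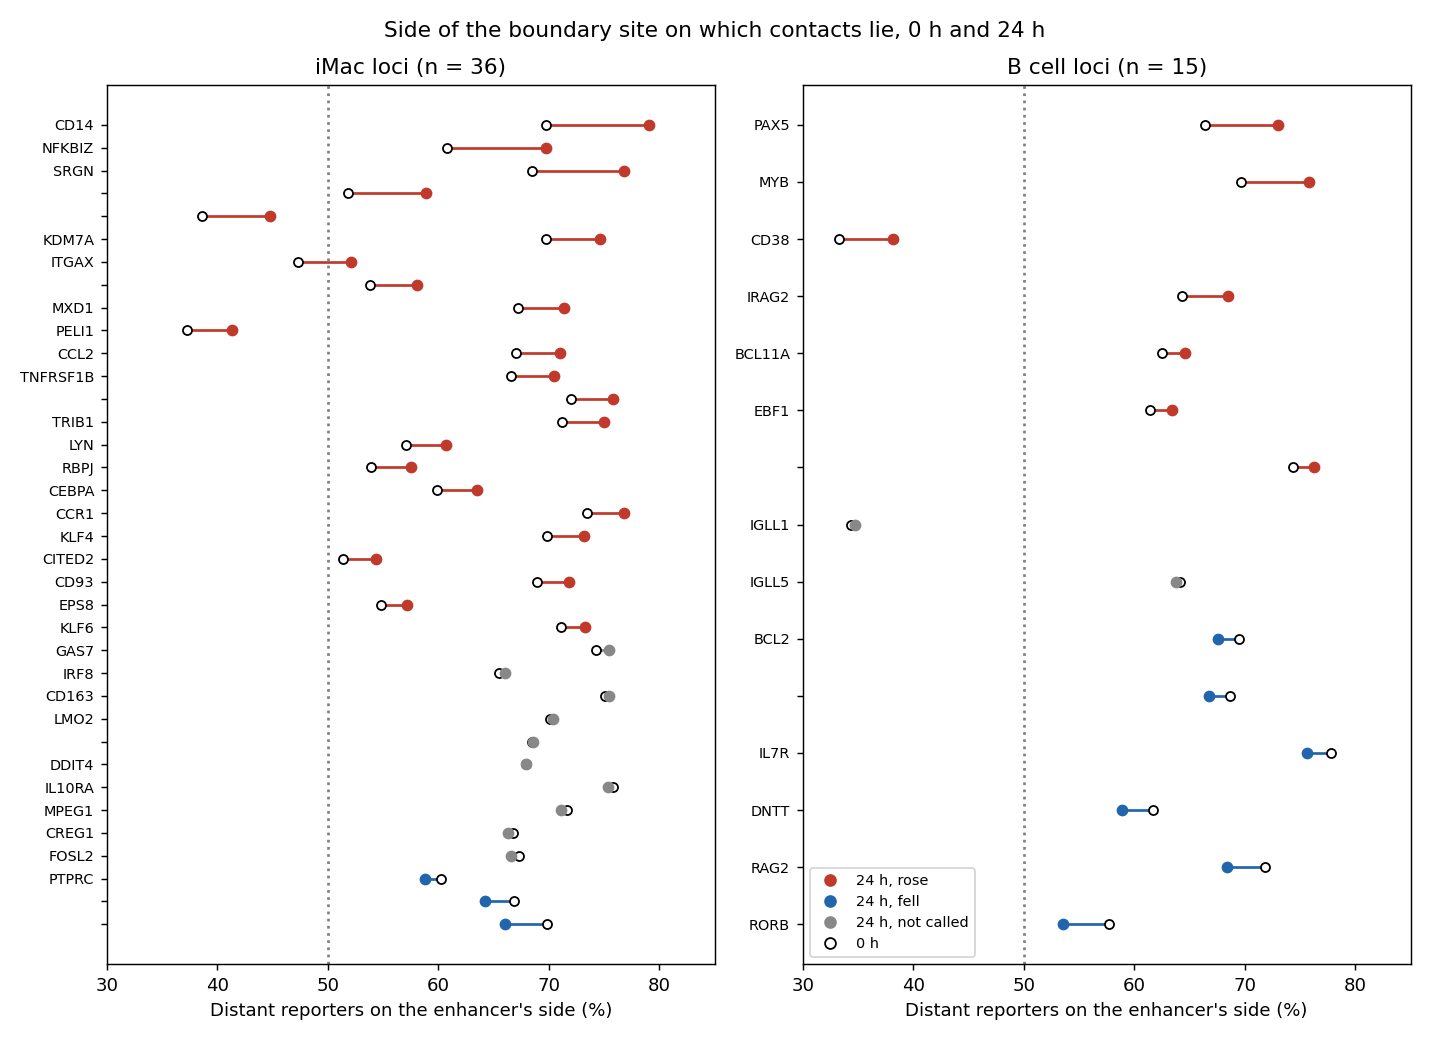
Share of distant reporters on the enhancer's side of the boundary site, in percent, at 0 h (open circles) and 24 h (filled circles) for each locus, with the colour giving the call by Fisher's exact test. Each point is 1 pooled library, so no error bars are drawn, and points without a name are loci that the text gives in counts only. At iMac loci 23 of 36 shares rose, and at B cell loci 7 of 15.

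The shift was in pairs with both reporters on one side. The share of distant pairs with both reporters on the enhancer's side was higher at 24 h at 30 of 36 iMac loci, with a median difference of 3.25 percentage points. The share with both on the other side was higher at 8 of 36, with a median difference of -3.04 points. At B cell loci the counts were 8 and 7 of 15. Straddling pairs, which join both sides of the boundary site, made up a median of 31.01% of distant pairs at 0 h and 30.5% at 24 h at iMac loci. Their share rose at 5 iMac loci and fell at 10, and rose at 4 and fell at 2 B cell loci, in all 17.6% and 23.5% of loci. The largest fall was at NFKBIZ, from 35.2% (34.3% to 36.2%) to 30.8% at 24 h, followed by GAS7, an actin regulator, from 29.8% to 26.5%, and CD14, from 31.1% to 27.8%. Of the named loci PELI1 rose most, from 35.1% to 37.8%. With counts divided by 3, 0 loci rose and 2 fell.

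The whole field of each site was then divided into 12 kb windows from 10 kb to 1 Mb on both sides. A window's counts are those of distant pairs with a reporter in it. Its value is the log2 odds ratio of these counts against the remaining counts within 1 Mb, 24 h over 0 h. Windows were tested by an exact conditional binomial test with adjustment over all windows. Of 7969 windows with at least 20 counts over both libraries, 15.8% rose and 5.06% fell, and the median was 0.11. These shares are the background for windows on promoters and enhancers. On the enhancer's side of iMac loci the median was -0.03 at 10 to 60 kb, 0.16 at 120 to 240 kb and 0.21 at 240 to 480 kb. In that last band 220 of 720 windows rose and 15 fell. On the other side of iMac loci the medians lay between -0.07 and -0.01 in every band, and 131 of 2736 windows rose and 196 fell. At B cell loci both sides gained far from the site, with medians of 0.35 and 0.33 beyond 480 kb. With distant counts as the total, 800 windows rose and 689 fell. The iMac medians were then 0.11 on the enhancer's side and -0.16 on the other side at 240 to 480 kb.

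**Figure D2:**
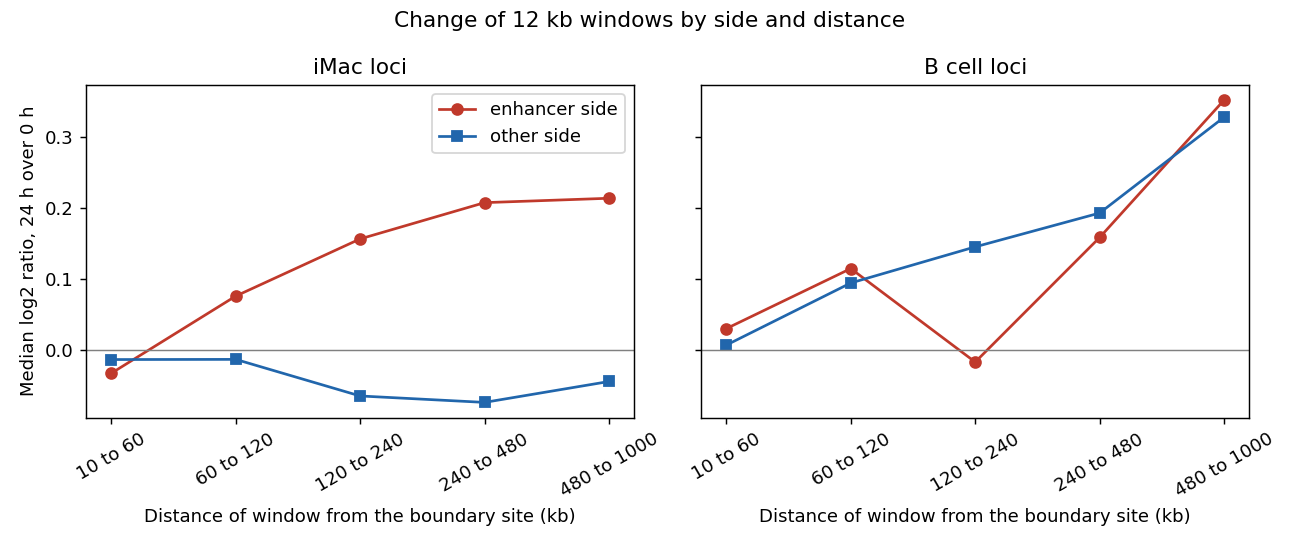
Median log2 odds ratio of 12 kb windows, 24 h over 0 h, against distance from the boundary site in kb, for the enhancer's side (circles) and the other side (squares). At iMac loci the sides part beyond 60 kb, with medians of 0.21 and -0.07 at 240 to 480 kb, while at B cell loci both sides rise to 0.35 and 0.33.

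The windows of single loci differed by side as well. At SRGN 27 of 82 windows on the enhancer's side rose and 3 fell, while of 79 windows on the other side none rose and 30 fell. At CD14 24 of 82 rose and 14 fell on the enhancer's side, and on the other side none rose and 35 of 82 fell. The largest named fall was at SRGN, in chr10:68637054-68649053, 358 to 370 kb from the site on the other side. Its share of counts was 0.193% at 0 h and 0.0643% at 24 h, a log2 odds ratio of -1.57 (95% interval -2.24 to -0.96). At CD14 the window chr5:140945139-140957138 had 0.188% and 0.0638%, a log2 odds ratio of -1.55 (-2.21 to -0.94). Neither window holds the start of a protein-coding gene.

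PAX5 had the broadest gain. On the enhancer's side 61 of 82 windows rose and none fell. The median log2 odds ratio of the 82 windows was 1.09, over all counts within 1 Mb. Distant pairs took 10409 of 38738 such counts at 0 h and 20960 of 58726 at 24 h, so the gain includes a larger distant share. On the other side 7 of 82 rose and 4 fell. The largest rise of any named window was on the enhancer's side of PAX5, in chr9:36615197-36627196, 682 to 694 kb from the site, with 16 counts at 0 h and 122 at 24 h. Its log2 odds ratio was 2.29 (95% interval 1.58 to 3.18). At IRF8 the window chr16:85622729-85634728, 382 to 394 kb away on the enhancer's side, had 45 counts at 0 h and 164 at 24 h, a log2 odds ratio of 1.70 (1.22 to 2.22). At EBF1 the window chr5:159147765-159159764, near the end of the measured range at 982 to 994 kb, had 51 and 197 counts, a log2 odds ratio of 1.68 (1.24 to 2.17). At NFKBIZ the window chr3:101567434-101579433, which holds the start of PCNP, rose by 1.37 (0.79 to 2.03) from 30 counts to 96.

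**Figure D3:**
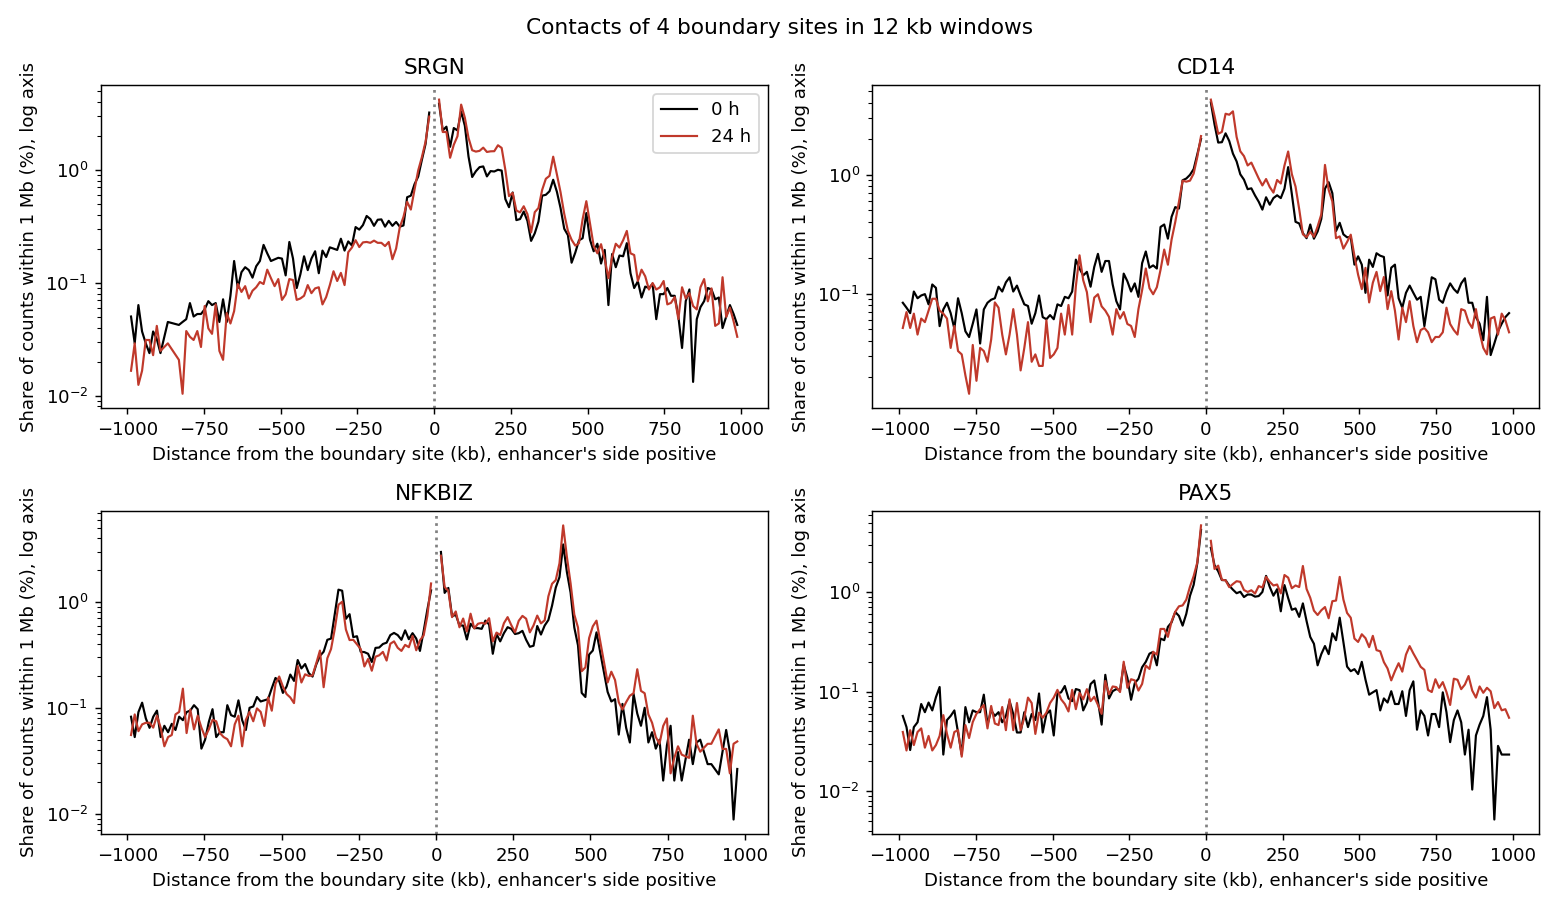
Share of counts within 1 Mb, in percent on a log axis, in 12 kb windows against distance from the boundary site in kb, with the enhancer's side positive, at 0 h (black) and 24 h (red). On the other side the windows of SRGN and CD14 had median log2 odds ratios of -0.62 and -0.73, NFKBIZ has its partner window 406 to 418 kb from the site, and at PAX5 the enhancer's side had a median of 1.09.

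Contacts also differed in how far they reached. Reach is the share of distant reporters more than 200 kb from the site. It rose at 22 and fell at 5 of 36 iMac loci and rose at 11 and fell at 1 of 15 B cell loci by Fisher's exact test, in all 64.7% and 11.8% of loci. The largest rise was at PAX5, from 38.7% to 48.7%, and of the other named loci CREG1, which encodes a lysosomal glycoprotein, rose from 33.5% to 39.8%. IL7R went from 53.2% to 58.3% and MYB from 57.2% to 62.03%. The largest fall was at CD14, from 40.98% (40.3% to 41.6%) to 33.8% (33.2% to 34.3%). IL10RA, the receptor of interleukin 10, went from 48.2% to 44.4%. At CD14 the enhancer-side share rose while reach fell.

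Distant pairs took a larger share of counts within 1 Mb at 24 h. The share rose at 45 of 51 loci, 88.2%, and fell at none, 0%, by Fisher's exact test, with 3 loci lower at 24 h before the test and a count of 1 fall by the conditional binomial test. At iMac loci the median share was 28.6% at 0 h and 31.1% at 24 h, and at B cell loci it was 31.7% and 34.6%. PAX5 rose from 26.9% to 35.7% and IRAG2 from 20.6% to 27.2%. With pairs of neighbouring restriction fragments left out of the total, 29 loci rose and 4 fell.

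Each boundary site had a window beyond 50 kb that stood highest over the median of up to 6 neighbours, called its partner window here. The definition was chosen after the values had been seen, and the windows were picked on both libraries together. Of 51 partner windows, 36 lay on the enhancer's side and 22 held a CTCF motif that pointed back to the viewpoint, or 43.1%. Motifs that pointed away were found in 4, or 7.84%. Of all windows beyond 50 kb, 7.02% held a motif that pointed to the viewpoint and 6.98% one that pointed away. Ranked by 0 h shares, 25 of 51 held a motif that pointed back. Both picks kept only windows with at least 200 counts over both libraries, so the latter also used 24 h counts. From 0 h to 24 h, 25 of the 51 partner windows rose and 4 fell. Of all 7564 windows beyond 50 kb, 1216 rose and 355 fell. The sets were not matched for counts. Partner windows needed at least 200 counts and the others at least 20, and the test calls smaller changes at higher counts. The partner windows had been picked partly on their 24 h counts. Of those ranked by 0 h shares, where the minimum count also used the 24 h library, 24 rose and 5 fell.

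Several partner windows took more than 3% of counts within 1 Mb. At NFKBIZ the partner window chr3:101807434-101819433 took 3.50% of counts at 0 h and 5.29% at 24 h, a log2 odds ratio of 0.62 (95% interval 0.52 to 0.73). At CEBPA, the endogenous gene of the converting factor, the window chr19:33228877-33240876 went from 4.69% to 5.37%, and at LMO2 chr11:33963968-33975967 from 5.32% to 5.70%. The PAX5 window chr9:36867197-36879196 took less, 0.552% of counts at 0 h and 1.42% at 24 h. It rose from 214 to 834 counts, a log2 odds ratio of 1.37 (1.16 to 1.60). The partner windows that fell included those of RAG2, from 4.21% to 3.44%, and CREG1, from 4.82% to 3.43%. All 6 were named after their values had been seen.

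Contacts of the boundary site with the target promoter rose at 19 loci. These contacts, C-P-X, are pairs with one reporter within 6 kb of the promoter and the other anywhere. They could be measured at 46 loci, and 5 promoters were too near to the site or more than 1 Mb away. C-P-X rose at 41.3% of them and fell at 5, 10.9%. Of all grid windows 15.8% rose and 5.06% fell, with no match of counts or distance between the sets. Of 32 iMac loci 12 rose and 3 fell, and the median log2 odds ratio was 0.18. Of 14 B cell loci 7 rose and 2 fell, and the median was 0.15. With distant counts as the total 9 of the 46 loci rose, and with counts divided by 3, 6 rose and 0 fell. Of the calls named below, those of KLF6, PELI1, RBPJ, EBF1, IRAG2, PTPRC, TNFRSF1B, RORB and IL7R were lost with counts divided by 3.

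Among iMac loci C-P-X rose at 6 of 10 myeloid transcription regulators and fell at none. At NFKBIZ it took 0.943% of counts (95% interval 0.843% to 1.05%) at 0 h and 1.53% (1.41% to 1.65%) at 24 h. At TRIB1 it went from 0.885% (0.801% to 0.974%) to 1.42% (1.32% to 1.51%), and at CCR1 from 1.33% (1.24% to 1.41%) to 1.78% (1.69% to 1.87%). The log2 odds ratios were 0.70, 0.69 and 0.43, with adjusted p of 4.38e-11, 1.32e-13 and 4.62e-11 by the exact test. KLF6, a zinc-finger regulator, had the largest ratio, 1.11 (0.60 to 1.65), from 46 counts to 107. At PELI1 it was 0.74 (0.42 to 1.08), from 116 counts to 243. At RBPJ, the Notch effector, a rise of 0.82 rested on 33 and 70 counts, and the value was -0.17 at the outermost annotated start of the gene. SRGN, LMO2, KDM7A and IRF8 did not pass the test, with log2 odds ratios of 0.01, -0.08, 0.11 and 0.15. The falls at PTPRC and TNFRSF1B, a TNF receptor, were -0.49 (-0.80 to -0.18) and -0.41 (-0.64 to -0.18), and both calls were lost with 7.5 kb windows.

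C-P-X rose at the 3 measured loci of B lineage transcription factors. At PAX5 C-P-X went from 0.898% (0.807% to 0.997%) to 1.45% (1.35% to 1.55%), and at MYB from 0.837% (0.745% to 0.936%) to 1.27% (1.16% to 1.39%). At EBF1, whose promoter lay 934 kb from the site, it went from 0.169% (0.134% to 0.209%) to 0.292% (0.2503% to 0.339%). The log2 odds ratios of PAX5, MYB and EBF1 were 0.70, 0.61 and 0.79, over all counts within 1 Mb. Distant pairs took a larger share of these counts at 24 h at all 3 loci. At PAX5 they were 10409 of 38738 counts at 0 h and 20960 of 58726 at 24 h. How much of each rise goes with this was not tested. IRAG2 rose by 0.80 (0.46 to 1.15), a call lost with distant counts as the total. RAG2 was level, with 1.88% and 1.87%, and at CD38 the values were 2.06% and 1.97%, neither of which passed the test. The falls were at RORB, -0.56 (-0.80 to -0.32), and at IL7R, -0.45 (-0.69 to -0.21), and the latter was not called at the gene's outermost start.

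Contacts of the boundary site with the enhancer, C-E-X, moved in both directions. They were counted as C-P-X, with the enhancer's site in place of the promoter. They rose at 14 of 51 loci, 27.5%, and fell at 8, 15.7%. Of all grid windows 15.8% rose and 5.06% fell, with no match of counts or distance between the sets. Of 36 iMac loci 8 rose and 6 fell, and the median log2 odds ratio was 0.05. Of 15 B cell loci 6 rose and 2 fell, and the median was 0.11. With counts divided by 3, 4 loci rose and 1 fell. KLF4, a zinc-finger regulator of monocyte differentiation, rose from 0.531% (0.465% to 0.603%) to 0.823% (0.748% to 0.902%), and NFKBIZ from 0.580% (0.501% to 0.666%) to 0.837% (0.752% to 0.930%). ITGAX rose by 0.89 from 31 counts to 67, but was at -0.03 with 30 kb windows. Among B cell loci IRAG2 rose by 0.76 (0.52 to 1.00), DNTT by 0.74 (0.45 to 1.03), MYB by 0.63 (0.32 to 0.95) and IL7R by 0.63 (0.40 to 0.86). With counts divided by 3 the calls of ITGAX, DNTT, MYB and NFKBIZ were lost.

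C-E-X fell at SRGN and KDM7A, where the enhancer-side share rose. At SRGN C-E-X went from 1.79% (1.66% to 1.93%) to 1.38% (1.27% to 1.48%), and at KDM7A from 1.18% (1.06% to 1.30%) to 0.9498% (0.862% to 1.04%). BCL2 went from 1.63% (1.54% to 1.73%) to 1.29% (1.21% to 1.37%), and TNFRSF1B had a log2 odds ratio of -0.44 (-0.64 to -0.23). At LMO2 it was -0.25 and at MPEG1, a pore-forming protein of macrophages, -0.30. Of these, the call of BCL2 alone held with counts divided by 3. TRIB1, CCR1, IRF8, RAG2 and PAX5 did not pass the test, with log2 odds ratios of -0.01, 0.09, -0.11, -0.05 and 0.05. At PAX5 the value was -0.37, a fall, with distant counts as the total.

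**Figure D4:**
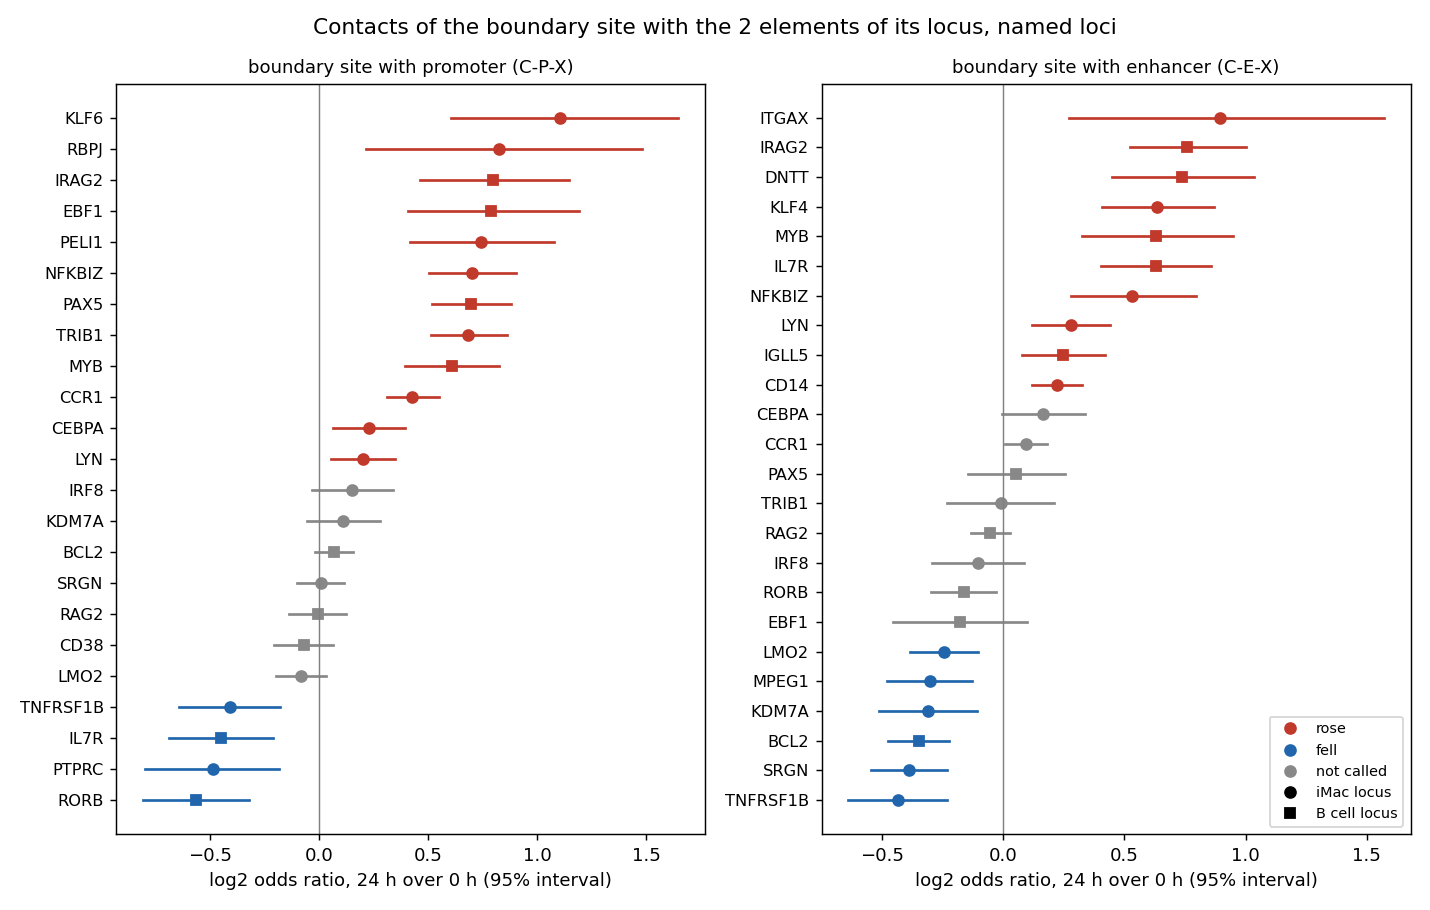
Log2 odds ratio of contacts of the boundary site with the promoter (left) and with the enhancer (right), 24 h over 0 h, for the named loci, with 95% intervals that cover counting error only. KLF6 is highest on the left at 1.11 and RORB lowest at -0.56, and on the right ITGAX is highest at 0.89 and TNFRSF1B lowest at -0.44, among the loci shown.

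The same contact was seen from the other end, in the libraries of enhancer viewpoints at the same times, which are separate captures. The change of the enhancer's contact with the boundary site had the sign of C-E-X at 37 of 51 loci, and of 15 loci called from both ends 13 had the same sign. Calls from the enhancer were adjusted over the promoter and boundary-site windows of those libraries alone, and calls from the boundary site over all windows. The thresholds of the 2 ends were therefore unlike. Across loci the correlation was 0.56 (Pearson) and 0.55 (Spearman). It is given as a description over 51 loci that share the cells. IRAG2 rose by 0.76 from the boundary site and by 0.88 from the enhancer, MYB by 0.63 and 0.93, and NFKBIZ by 0.53 and 0.76. TNFRSF1B and BCL2 fell from both ends, by 0.44 and 0.66 and by 0.35 and 0.72. The 2 loci with opposite calls were SRGN, at -0.39 and 0.19, and KDM7A, at -0.31 and 0.54. The interval of SRGN from the enhancer was 0.03 to 0.35.

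Triple contacts of boundary site, enhancer and promoter, C-E-P, could be measured at 21 loci. They rose at 4, 19%, and fell at none by the exact test. At CCR1 there were 42 counts at 0 h and 105 at 24 h, 0.0604% (95% interval 0.0435% to 0.0817%) and 0.120% (0.0980% to 0.145%) of the total. The log2 odds ratio was 0.98 (0.46 to 1.54). At SRGN the counts were 42 and 99, a log2 odds ratio of 0.88 (0.35 to 1.45). At SRGN C-P-X had been level and C-E-X had fallen. LYN, a Src-family kinase, had 10 and 32 counts, a log2 odds ratio of 1.45 (0.44 to 2.69), and DNTT had 3 and 22, one of 2.36 (0.81 to 4.93). At 96 h, against the same 0 h library, C-E-P took 0.282% of counts at CCR1, 0.280% at SRGN, 0.0687% at LYN and 0.0758% at DNTT. RAG2 had the most triple counts, 154 and 144, and did not pass the test. With counts divided by 3, 6 loci could be measured and 0 rose.

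Pairs of annotated elements were counted last. The study annotated 525 CTCF sites, 534 enhancers and 58 promoters at these loci from another assay in the same cells, so these lists are not independent of it. Distant pairs with both reporters at CTCF sites, C-C-C, rose at 18 of 45 loci, 40%, and fell at 5, 11.1%, as a share of distant counts. Distant pairs with at least 1 reporter at a CTCF site, C-C-X, include those of C-C-C. C-C-X rose at 26 of 51 loci, 51%, and fell at 13, 25.5%, by Fisher's exact test. The median log2 odds ratio was 0.23 for C-C-C and 0.13 for C-C-X, and the difference between them was not tested. At iMac loci C-C-C rose at 15 of 30 and fell at 2, and at B cell loci it rose at 3 of 15 and fell at 3. KLF4 rose by 1.14 (95% interval 0.39 to 2.00) from 19 counts to 56, a call lost with 7.5 kb windows. CD14 had 2.11% of distant counts at 0 h and 3.53% at 24 h, a log2 odds ratio of 0.76 (95% interval 0.54 to 0.99). RAG2 went from 3.29% to 2.55%, a ratio of -0.38 (-0.56 to -0.20), and KDM7A from 1.90% to 1.35%, a ratio of -0.50 (-0.78 to -0.22). With counts divided by 3, 4 loci rose and 0 fell.

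Pairs with both reporters at enhancers or promoters, C-E/P, moved in both directions. They rose at 13 of 50 loci, 26%, and fell at 12, 24%. Pairs with at least 1 reporter at such an element, C-(E/P)-X, include those of C-E/P. C-(E/P)-X rose at 18 of 51 loci, 35.3%, and fell at 18, 35.3%, by Fisher's exact test. The median log2 odds ratio was 0.03 for C-E/P and -0.01 for C-(E/P)-X. At myeloid transcription regulators 6 of 12 rose and 1 fell, and at the 4 other B cell loci 1 rose and 3 fell. TRIB1 rose by 0.61 (95% interval 0.41 to 0.82) and KLF6 by 0.87 (0.48 to 1.28). CD14 went from 8.87% (8.35% to 9.41%) of distant counts to 12.7% (12.2% to 13.2%). PAX5 went from 1.77% to 1.25%, a log2 odds ratio of -0.51 (-0.79 to -0.23). TNFRSF1B had a log2 odds ratio of -1.09 (-1.61 to -0.59) and BCL2 one of -0.63 (-0.86 to -0.41). At RORB the value of -1.45 (-2.45 to -0.57) rested on 35 counts at 0 h and 15 at 24 h. With 7.5 kb windows 5 loci rose and 2 fell.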

How the data were processed

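Tri-C libraries were made by the authors from BLaER1 cells with NlaIII digestion, proximity ligation and oligonucleotide capture, processed with CapCruncher against hg38 and merged over 3 replicates. The deposited unit is a raw count of fragment pairs seen with the viewpoint. Viewpoint fragments were placed from the capture design, and no reporter fell on them at 0 h.

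The total was all counts with both reporters within 1 Mb. Distant pairs had reporters over 10 kb from the viewpoint and over 10 kb apart, and windows and element contacts counted these pairs only. Windows were 12 kb, with at least 20 counts over both libraries. Log2 odds ratios used a pseudo-count of 0.5, and intervals are exact (Clopper-Pearson) at 95%. Calls were made at an adjusted p under 0.05, with Benjamini-Hochberg adjustment over all windows. For the enhancer viewpoints the adjustment covered their promoter and boundary-site windows only. Windows were compared by a two-sided exact conditional binomial test. The same test had been planned for the enhancer-side, straddling, distant and reach shares. On simulated counts with no change it called too many of such large shares, because it takes the remaining counts as known, so Fisher's exact test replaced it after the data had been seen. Of the counts by the planned test, those of the enhancer-side share and the falls of the distant share are given with the alternatives. Fisher's exact test was also used for C-C-X and C-(E/P)-X, added after the data had been seen. C-E-P, C-C-C and C-E/P, which are small shares, kept the planned test, with adjustment over the loci measured.

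The CTCF matrix of 19 positions was written from general knowledge of the motif, not taken from a database. Members, lists, rules and tests were chosen with earlier results of these data known. Single values come from 42 loci by a fixed rule. For C-P-X, C-E-X and the enhancer-side share it takes the 6 called loci of largest rise and of largest fall with at least 50 counts, the 2 loci of each list with the most counts, and 9 further loci (IRF8, KDM7A, LMO2, SRGN, MYB, RAG2, TRIB1, NFKBIZ and CCR1). For other results it takes the 4 called loci of largest rise and of largest fall, and for windows the 8 largest each way with at least 100 counts. The text describes a selection of these, and CD38, IGLL1, PELI1 and ITGAX in the account of motifs, CD38 and IRAG2 among rises of the enhancer-side share, the partner windows, PAX5, CD14 and RAG2 among element pairs, and RAG2 among triples, were named after their values were seen. Values of some single loci are not reported here. Samples of a group could not be compared with each other, since the files are pooled. The tools were SciPy 1.17.1, pandas 2.3.3, NumPy 2.4.6 and, for figures, matplotlib 3.10.9, under Python 3.11.15.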

Additional observations from a re-analysis of the deposited data

How the results depend on the processing

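No paired analysis was possible because the 3 replicates of a group were pooled in its files, and no replicate could be left out for the same reason. Dividing all counts by 3 had the widest effect. C-P-X then rose at 6 loci and fell at 0, C-E-X rose at 4 and fell at 1, C-E-P rose at 0, C-C-C rose at 4 and fell at 0, C-E/P rose at 2 and fell at 1, the straddling share rose at 0 and fell at 2, and 185 grid windows rose and 29 fell. With each fragment pair counted once, C-P-X rose at 12 loci, C-E-P at 1 and 793 grid windows rose, and the distant share fell at 4. With distant counts as the total, C-P-X rose at 9 loci, C-E-P fell at 2, and 800 grid windows rose and 689 fell. With 7.5 kb windows C-P-X fell at 3 loci, C-E-P rose at 0, and C-E/P rose at 5 and fell at 2. With 30 kb windows C-C-C fell at 9 loci, and with an exclusion of 20 kb C-P-X fell at 3. At least 50 counts left 2 loci with a C-E-P rise. The distant share fell at 3 loci with the whole chromosome as the total.

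Alternatives chosen after seeing the data were these. With neighbouring fragments left out, the distant share rose at 29 loci and fell at 4. By the planned conditional binomial test the distant share fell at 1 locus, and the enhancer-side share rose at 33 and fell at 12. Reach fell at 3 loci with counts divided by 6, and C-C-X at 8 with counts divided by 3.

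Signs that turned were those of C-P-X at RAG2 (0.20, called, with 30 kb windows) and RBPJ (-0.17 at the outermost promoter), of C-E-X at ITGAX (-0.029 with 30 kb windows), at TRIB1 (0.21, called, with 30 kb windows) and at PAX5 (-0.37 with the distant total), and of C-E/P at BCL11A (0.35 with 30 kb windows). The causes were not tested. C-C-C and C-E/P already used the distant total. The count of rises of the enhancer-side share stayed within 1.5 times its value in every alternative run, as did that of falls. Depth limits C-E-P most, which could be measured at 21 of 51 loci.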
